A study of Mus musculus with 12 samples.

Results

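Collagens are the triple-helical proteins of the extracellular matrix, and 42 loci of this gene family were found among the 20114 entries of the deposited count table that name 1 locus. A locus was taken where the entry's gene names, split at the plus signs that join them, held a symbol of the form Col, a number, a and a number. The family was sorted by structural class into 11 fibrillar, 6 basement membrane, 9 FACIT, 4 transmembrane, 6 beaded filament, 3 short-chain network and 2 multiplexin collagens and 1 anchoring fibril collagen. RNA had been sequenced from sorted mouse mammary epithelial cells in 12 libraries, 4 in each of 3 groups. Recombined cells were of genotype mT-mG/SmoM2;MMTV-Cre, green (EGFP) and SmoM2 positive. Unrecombined cells shared that genotype but were red (tdTomato) and SmoM2 negative. Wild type cells, in the labels' term, were mT-mG/SmoM2;+ and red. All 3 groups therefore carried the mT-mG reporter and the SmoM2 allele. The mice were adult females, 9 weeks old, whose mixed strain background combined Swiss Webster with C57BL/6 and 129X1/SvJ.

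SmoM2 is an activated form of Smoothened, the membrane protein that passes on Hedgehog signals. The promoter of mouse mammary tumor virus (MMTV) drives Cre, which switches the reporter from red to green, so cells in which Cre had acted were sorted as green. Color, Cre action and SmoM2 differ together between recombined cells and both other groups and cannot be told apart. Which animals gave which library is not in the labels, so p-values measure the spread between libraries.

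Fibrillar collagens such as types I, III and V assemble into the cross-striated fibrils of connective tissue and are made mostly by fibroblasts. Type IV collagens form the sheet-like network of basement membranes, on which mammary ducts rest. FACITs (fibril-associated collagens with interrupted triple helices) decorate fibrils, and transmembrane collagens span the plasma membrane with a collagenous ectodomain. In the mammary gland the basal (myoepithelial) cells contact the basement membrane, through integrins and through hemidesmosomes, the junctions that hold type XVII collagen.

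Collagen RNA had a different make-up in recombined cells. Of the 40 loci with enough counts to test, 21 passed the threshold in recombined against wild type cells, 14 higher and 7 lower, an adjusted p below 0.05 over 14039 loci in edgeR's quasi-likelihood test. Over all 14039 loci, 6.55% passed, 4.17% higher and 2.38% lower. In recombined against unrecombined cells, 21 collagens passed, 10 higher and 11 lower, where 5.22% of all loci passed, 3.08% higher and 2.14% lower. Both comparisons use the same recombined libraries. Higher in both were 10 loci and lower in both were 7. A further 4 were called higher against wild type cells only, and 4 were called lower against unrecombined cells only. The 4 recombined libraries lay wholly above the wild type libraries at 12 collagen loci, as at 6.33% of all loci, and wholly below them at 8 (5.91% of all loci). They lay wholly above the unrecombined libraries at 10 (5.57% of all loci) and wholly below them at 15 (5.71%). No collagen passed between unrecombined and wild type cells, where no locus passed (0%).

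By class, fibrillar collagens divided into 5 lower and 2 higher of 11 in recombined against wild type cells, while in the basement membrane class 4 of 6 were higher and none lower. In the FACIT class 4 of 7 tested loci were higher and none lower, and in the transmembrane class 1 of 4 was higher. The median log2 fold change was -1.14 over fibrillar, 0.92 over basement membrane, 1.34 over FACIT and 0.47 over transmembrane collagens, against -0.02 over all loci tested. Against unrecombined cells 7 fibrillar collagens were lower and 2 higher, 2 basement membrane and 3 FACIT collagens were higher, and 1 transmembrane collagen was higher and 1 lower. The class medians were then -2.79, 0.70, 1.14 and -0.23 in the same order, against -0.01 over all loci.

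**Figure D1:**
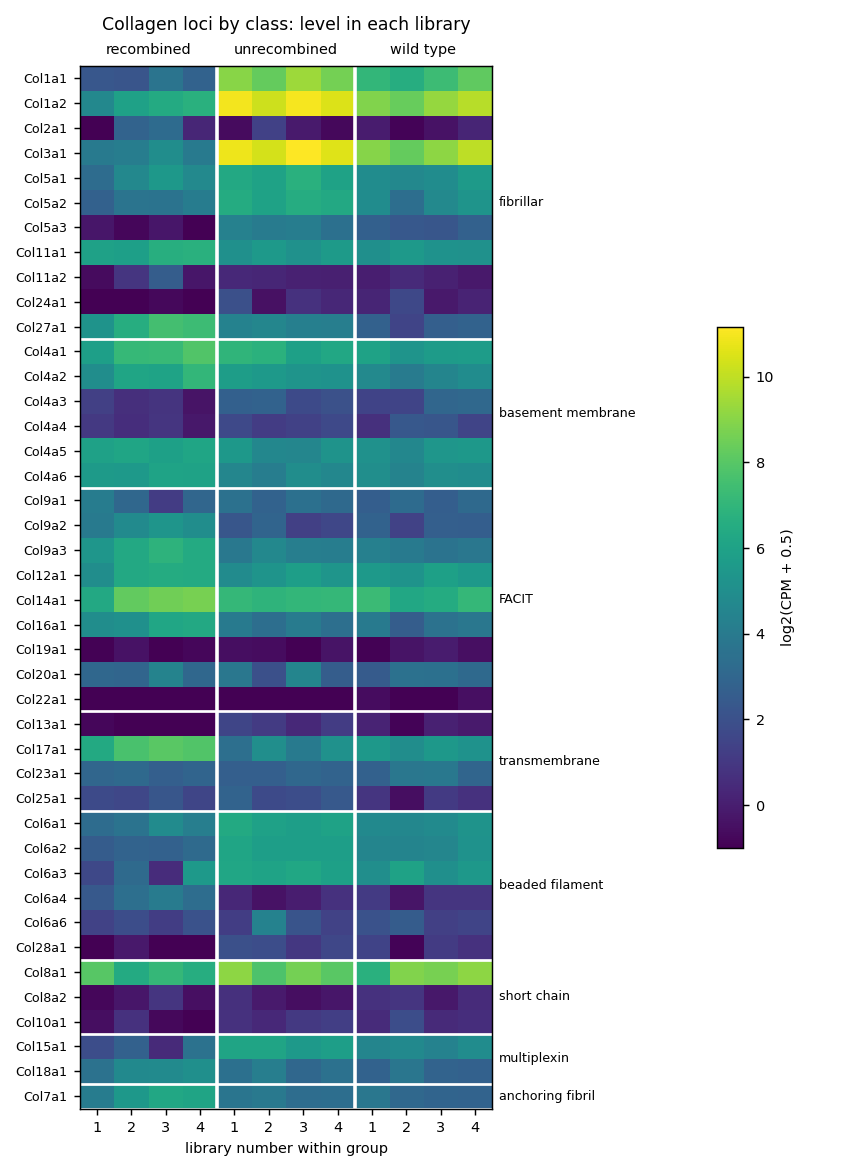
Heat map of log2(CPM + 0.5) for the 42 collagen loci (rows, grouped by class) in the 12 libraries (columns: recombined, unrecombined and wild type, 4 each; CPM, counts scaled to library size). Col1a1, Col1a2 and Col3a1 are lower in the 4 recombined libraries than in every other library. Col27a1 and Col17a1 are higher in the 4 recombined libraries than in every other library.

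Single-locus totals were 19569509 to 34744267 counts a library. Smo was at 49.1 to 74.6 CPM in recombined, 26.8 to 36.8 in unrecombined and 18.6 to 35.2 CPM in wild type libraries. Recombined libraries 3 and 4 stood apart: on the first principal component of log2 CPM they lay at -96.1 and -78.1, and the other 10 libraries between -33.2 and 37.5. Without those 2 libraries 11 collagens passed against wild type cells, 3 of them higher, and of the 10 collagens higher against unrecombined cells 4 passed. Calls over all loci fell as well, from 920 to 248 against wild type cells and from 733 to 283 against unrecombined cells. The labels' library numbers fall into a lower-numbered series (recombined and unrecombined 1 and 2, wild type 1 to 3) and a higher-numbered series (the rest). Within the lower-numbered series 7 collagens passed against wild type cells (1 higher) and 7 against unrecombined cells (0 higher), and within the higher-numbered series 4 (1 higher) and 10 (5 higher). Over all loci, 75 passed against wild type and 106 against unrecombined cells within the lower-numbered series, and 115 against unrecombined cells within the higher-numbered series. The higher-numbered series holds 1 wild type library, which is assumed to vary like the others. Col1a1, Col1a2, Col3a1 and Col27a1 passed against wild type cells in every alternative analysis run, as did Col1a1, Col1a2, Col3a1 and Col6a2 against unrecombined cells. Transcripts of salivary gland genes were high in replicate 2 of each group (12 markers summed to 19705, 92829.5 and 42003 CPM in recombined, unrecombined and wild type library 2, and to 104 to 1431 CPM in the others).

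Markers of other cells moved with the collagens. The 16 non-collagen fibroblast markers summed to 408 to 1004 CPM in recombined, 4973 to 6678 in unrecombined and 1690.2 to 2908 CPM in wild type libraries. Of these, 13 were lower in recombined than in wild type cells and 14 lower than in unrecombined cells, and 4 were at 0 in at least 1 recombined library. The 10 basal epithelial markers summed to 1849 to 7819 CPM in recombined, 489 to 1131 in unrecombined and 862 to 1053 CPM in wild type libraries. Of these, 9 were higher against wild type cells and all 10 against unrecombined cells. The 10 luminal markers summed to 2515 to 4578 CPM in recombined, 5549 to 9917 in unrecombined and 5285 to 10319 CPM in wild type libraries, with 3 lower in recombined than in wild type cells and 2 lower than in unrecombined cells. Of 8 pericyte markers 2 were higher and 1 lower against wild type cells, and 1 was higher and 1 lower against unrecombined cells. Of 7 macrophage markers tested 4 were lower against wild type cells and 0 passed against unrecombined cells. Of 7 endothelial markers tested none passed against wild type cells and 1 was lower against unrecombined cells. These counts stand beside the 4.17% of all loci higher and 2.38% lower against wild type cells, and the 3.08% higher and 2.14% lower against unrecombined cells. The single adipocyte marker tested and the 10 salivary markers tested did not pass. The part of cell composition in the collagen results was not tested, and in bulk RNA fewer cells of a type and less RNA per cell cannot be told apart.

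The promoters of 4 loci are shown because their RNA was at the center of the results: the divergent pair Col4a1 and Col4a2, which moved together, and Col3a1 and Col27a1, fibrillar collagens that moved in opposite directions. Each window runs 5′ to 3′ from 250 bases before to 50 after the annotated start in RefSeq on GRCm38.p6, which held such windows for 34 of the 42 loci (37 windows). Col4a1 lies on the minus strand (chr8:11312777-11313076) and Col4a2 on the plus strand (chr8:11312555-11312854), with starts 21 bases apart. Their windows overlap over 78 bases, in capitals, which are the reverse complement of each other.
Col4a1: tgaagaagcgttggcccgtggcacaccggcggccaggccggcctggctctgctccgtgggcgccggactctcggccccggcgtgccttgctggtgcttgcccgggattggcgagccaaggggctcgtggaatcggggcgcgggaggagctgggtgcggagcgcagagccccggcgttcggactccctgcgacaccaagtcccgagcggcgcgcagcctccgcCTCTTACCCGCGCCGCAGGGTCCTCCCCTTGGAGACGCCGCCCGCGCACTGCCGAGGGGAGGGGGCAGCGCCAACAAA
Col4a2: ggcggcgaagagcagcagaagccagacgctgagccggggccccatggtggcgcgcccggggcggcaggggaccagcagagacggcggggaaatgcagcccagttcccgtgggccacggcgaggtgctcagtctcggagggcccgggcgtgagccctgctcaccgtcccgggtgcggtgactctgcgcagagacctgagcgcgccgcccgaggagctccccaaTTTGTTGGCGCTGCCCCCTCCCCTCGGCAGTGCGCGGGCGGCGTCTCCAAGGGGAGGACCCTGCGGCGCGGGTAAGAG
Col27a1 is on the plus strand (chr4:63215162-63215461), and its capitals mark 2 matches to the GC box GGGCGG on either strand.
Col27a1: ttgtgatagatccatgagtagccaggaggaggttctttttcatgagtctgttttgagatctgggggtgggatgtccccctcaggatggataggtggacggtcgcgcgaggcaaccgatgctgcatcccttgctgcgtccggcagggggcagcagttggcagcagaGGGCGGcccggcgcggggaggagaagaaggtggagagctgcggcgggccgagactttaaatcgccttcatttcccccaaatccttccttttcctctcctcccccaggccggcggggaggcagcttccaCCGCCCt
Col3a1 is on the plus strand (chr1:45311288-45311587), and its capitals mark 1 match to TATAAA, the letters of the TATA box.
Col3a1: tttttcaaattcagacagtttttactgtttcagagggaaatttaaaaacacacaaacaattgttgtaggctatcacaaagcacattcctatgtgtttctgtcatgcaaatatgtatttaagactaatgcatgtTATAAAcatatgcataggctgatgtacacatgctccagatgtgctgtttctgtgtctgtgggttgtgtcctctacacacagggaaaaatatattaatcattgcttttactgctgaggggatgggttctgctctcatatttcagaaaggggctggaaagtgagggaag
Among the 37 collagen windows, searched on both strands, 22 held GGGCGG (35.7% of all 32851 windows of this length), 13 held CCAAT (37.4%), 5 held TATAAA (13.6%) and 0 held the Gli consensus GACCACCCA (0.253%). None of the 4 motifs contains another. A match was counted wherever it lay in the window, before or after the start, and whether it acts in the promoter was not tested. Col4a1 and Col4a2 each held a CCAAT match, and Col3a1 and Col27a1 held none.

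In the fibrillar class the major chains of skin and stroma fell together. Col3a1, which forms type III homotrimers (mm9 chromosome 1, start 45368382), was at 15.9, 17.2, 30.8 and 15.1 CPM in recombined libraries, 1868, 1313, 2299 and 1521 CPM in unrecombined libraries and 502, 313, 541 and 988 CPM in wild type libraries. No recombined library came near either other group, and all 4 unrecombined libraries lay above all 4 wild type libraries. Col3a1 fell by 4.89 on the log2 scale against wild type cells (SE 0.374, adjusted p = 3.48e-05) and by 6.47 against unrecombined cells (SE 0.403, adjusted p = 2.53e-06). Within the lower- and higher-numbered series the log2 fold changes of Col3a1 were -4.77 and -5.42 against wild type and -6.57 and -6.39 against unrecombined cells, and all 4 passed.

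Col1a1 and Col1a2 encode the chains of type I collagen, the main protein of interstitial fibrils. Col1a1 (chromosome 11, 94797583) was at 4.42, 4.14, 12.2 and 6.59 CPM in recombined, 509, 309, 674 and 399 CPM in unrecombined and 131, 93.9, 163 and 290.4 CPM in wild type libraries. Col1a2 (chromosome 6, 4455696) was at 24.9, 61.5, 87.4 and 105 CPM in recombined, 1991, 1194, 2019 and 1486 CPM in unrecombined and 466, 319, 613 and 918 CPM in wild type libraries. For both chains the 3 groups did not overlap. Col1a1 fell by 4.64 on the log2 scale (SE 0.447, adjusted p = 0.000101) and Col1a2 fell by 3.06 (SE 0.415, adjusted p = 0.000816) against wild type cells. Against unrecombined cells the log2 fold changes were -6.12 for Col1a1 (SE 0.478, adjusted p = 6.45e-06) and -4.59 for Col1a2 (SE 0.446, adjusted p = 3.85e-05).

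The type V chains, which nucleate type I fibrils, were less uniform. Col5a3 was at 0 to 0.328 CPM in recombined, 10.8 to 19.8 in unrecombined and 4.23 to 6.27 CPM in wild type libraries. Its 19 counts over the recombined libraries, against 1773 in unrecombined and 571 in wild type libraries, gave log2 fold changes of -4.84 against wild type cells (adjusted p = 0.000515) and -6.43 against unrecombined cells (adjusted p = 5.69e-05). Col5a2, the neighbor of Col3a1 on chromosome 1, averaged 11.8 ± 4.22 CPM in recombined, 81.5 ± 12.2 in unrecombined and 26.1 ± 11.9 CPM in wild type libraries (SD, n = 4 each). It fell by 2.79 on the log2 scale against unrecombined cells (adjusted p = 0.000478), and its log2 difference of -1.14 from wild type cells did not pass (adjusted p = 0.0715). Without wild type library 2, at 10.1 CPM the lowest of its group, that difference was -1.41 with an adjusted p of 0.0132. Col5a1 averaged 26.4 ± 14.4, 77.9 ± 19.9 and 33.5 ± 10.3 CPM in recombined, unrecombined and wild type libraries. It was lower than in unrecombined cells by a log2 fold change of -1.56 (adjusted p = 0.0229) and did not pass against wild type cells (-0.35, adjusted p = 0.646). The Col5a1 call was lost without recombined library 2 or 4 or unrecombined library 1 or 3, at adjusted p of 0.0573, 0.0636, 0.0586 and 0.0712. In the 25 alternatives the adjusted p ran from 0.0132 to 0.436 for Col5a2 against wild type cells and from 0.000985 to 0.316 for Col5a1 against unrecombined cells.

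Col27a1 and Col11a1 went the other way within the fibrillar class. Col27a1 encodes a fibrillar collagen of cartilage (chromosome 4, 62876445; counted with mKIAA1870). It was at 37.9, 93.7, 182 and 161 CPM in recombined, 20.7, 23.3, 18.6 and 17.7 CPM in unrecombined and 6.47, 2.28, 5.97 and 6.59 CPM in wild type libraries. The 3 groups did not overlap, and recombined library 1 was the lowest of its group. The log2 fold change was 4.48 (SE 0.465, adjusted p = 0.000127) against wild type cells and 2.57 (SE 0.424, adjusted p = 0.00238) against unrecombined cells. Without recombined libraries 3 and 4 the values were 3.62 (adjusted p = 0.00154) and 1.72 (adjusted p = 0.0514), so the call against unrecombined cells was lost. Within the lower- and higher-numbered series Col27a1 differed from wild type cells by 3.75 and 4.71 on the log2 scale and from unrecombined cells by 1.6 (adjusted p = 0.415) and 3.24. Col11a1, a chain of type XI collagen that also occurs in hybrid V/XI fibrils (counted with AK132829), was at 61.1, 58.6, 96.9 and 106 CPM in recombined, 34.4, 47.3, 35.5 and 48.7 CPM in unrecombined and 32.5, 46.7, 35.8 and 34.6 CPM in wild type libraries. It rose by 1.11 on the log2 scale against wild type cells (SE 0.225, adjusted p = 0.00983) and by 0.96 against unrecombined cells (adjusted p = 0.0219). The call against unrecombined cells was lost without recombined library 3 or 4 or unrecombined library 1 or 3 (adjusted p = 0.059, 0.0701, 0.081 and 0.0712), and neither call held without both recombined libraries 3 and 4 (0.67 with adjusted p = 0.155, and 0.53 with adjusted p = 0.334). Among 25 alternative settings the adjusted p against unrecombined cells ran from 2.62e-08 to 0.415 for Col27a1 and from 0.00215 to 0.619 for Col11a1, and against wild type cells from 2.68e-24 to 0.0378 for Col27a1 and from 0.000204 to 0.367 for Col11a1.

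The other fibrillar loci were at low levels. Col24a1 had 2 counts over all recombined libraries, against 157 in unrecombined and 115 in wild type libraries. Its scaled count ratio was 0.0137 (95% interval 0.00164 to 0.0503, exact binomial, counting error only) to unrecombined and 0.0178 (0.00213 to 0.0658) to wild type libraries. It was called lower in both comparisons (adjusted p = 0.0226 and 0.0277). The call against unrecombined cells was lost without recombined library 2 or 4 or unrecombined library 1 (adjusted p = 0.0617, 0.0646 and 0.088), and that against wild type cells without recombined library 1, 2 or 4 or wild type library 2 or 4 (adjusted p = 0.056, 0.0692, 0.0702, 0.0809 and 0.0553). Over its alternative analyses the adjusted p ran from 0.000454 to 0.517 and from 0.00114 to 0.703. Col2a1, the main collagen of cartilage, ranged from 0 to 9.09 CPM in recombined, 0.102 to 2.07 in unrecombined and 0.0387 to 0.716 CPM in wild type libraries. Col11a2 ranged from 0.149 to 5.49, 0.543 to 0.832 and 0.394 to 0.851 CPM in the same groups. Neither passed in any comparison.

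**Figure D2:**
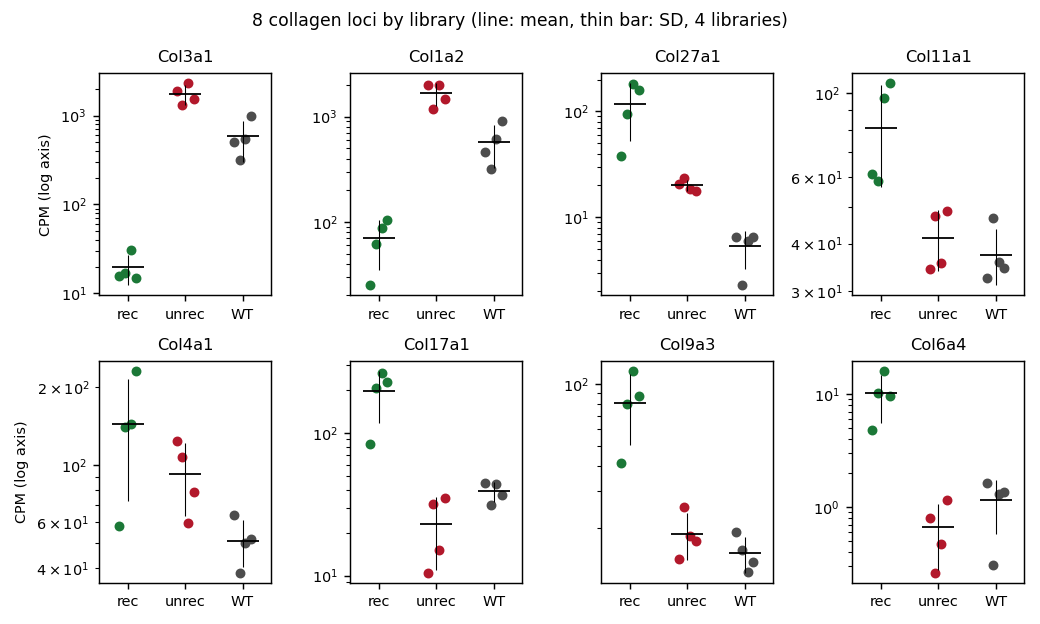
CPM (log axis, own range in each panel) of 8 collagen loci in recombined (rec), unrecombined (unrec) and wild type (WT) libraries; points are libraries, lines are means of 4 and thin bars SD. Col3a1 and Col1a2 are lowest in the recombined group and Col27a1, Col11a1, Col17a1, Col9a3 and Col6a4 are highest there. For Col4a1, recombined library 1 at 58.1 CPM lies within the wild type range and below every unrecombined library.

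Among basement membrane collagens, 4 of the 6 type IV chains rose in recombined relative to wild type cells. Col4a1 and Col4a2 form the ubiquitous type IV trimer and are transcribed head to head on chromosome 8, from the overlapping promoter windows shown above. Col4a1 was at 58.1, 140.1, 144.1 and 230.6 CPM in recombined, 124.2, 106.6, 59.8 and 78.7 CPM in unrecombined and 64, 38.4, 49.9 and 51.6 CPM in wild type libraries. Recombined library 1 was the lowest of its group and lay within the wild type range. Col4a2 was at 31.1, 70.4, 67.2 and 134 CPM in recombined, 55, 47.1, 38.3 and 36.5 CPM in unrecombined and 26, 16, 23.1 and 29.8 CPM in wild type libraries. Every recombined and every unrecombined library was above every wild type library for Col4a2. The log2 fold changes against wild type cells were 1.49 for Col4a1 (SE 0.34, adjusted p = 0.0182) and 1.67 for Col4a2 (SE 0.348, adjusted p = 0.0111). Against unrecombined cells neither passed (0.63 with adjusted p = 0.343, and 0.77 with adjusted p = 0.245). The Col4a1 call was lost without recombined library 4 or wild type library 2, 3 or 4 (adjusted p = 0.0537, 0.0613, 0.0532 and 0.0566). Without recombined library 1, Col4a2 passed against unrecombined cells (1.03, adjusted p = 0.0387). With 25 other settings the adjusted p ran from 0.000436 to 0.383 for Col4a1 against wild type cells and from 0.0387 to 1 for Col4a2 against unrecombined cells.

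Col4a5 and Col4a6, chains of another type IV network found under some epithelia and around smooth muscle, are also neighbors in divergent orientation, on the X chromosome, with annotated starts 1343 bases apart. Col4a6 was at 49.3, 46.6, 66.9 and 63.3 CPM in recombined, 23.2, 17.5, 30.5 and 24.2 CPM in unrecombined and 31.4, 21, 32.3 and 29.5 CPM in wild type libraries. Its recombined libraries were above all others, with log2 fold changes of 0.98 against wild type (SE 0.216, adjusted p = 0.0146) and 1.24 against unrecombined cells (SE 0.217, adjusted p = 0.00342). Col4a5 averaged 65.7 ± 6.06 CPM in recombined, 32.4 ± 9.95 in unrecombined and 35.9 ± 8.72 CPM in wild type libraries. It rose by 0.87 against wild type (adjusted p = 0.0408) and by 1.02 against unrecombined cells on the log2 scale (adjusted p = 0.0202). Of the Col4a5 calls, the first was lost without recombined library 2, 3 or 4, unrecombined library 4, or a wild type library whichever it was (adjusted p = 0.0519 to 0.111), and the second without recombined library 4 or unrecombined library 2 or 3 (adjusted p = 0.0533, 0.068 and 0.0655). The remaining pair, Col4a3 and Col4a4 of kidney and lung basement membranes, lay at 0.288 to 1.94 CPM in recombined, 1.73 to 6.66 CPM in unrecombined and 1.12 to 8.13 CPM in wild type libraries and passed in neither comparison. Col4a3 had a log2 difference of -2.13 from wild type cells (adjusted p = 0.058), with no overlap between the groups. Without recombined libraries 3 and 4, none of the 4 higher type IV chains passed against wild type cells (log2 fold changes 0.74 to 1.1, adjusted p = 0.131 to 0.25). Across 25 alternative analyses the adjusted p of Col4a5 ran from 0.00746 to 0.763 against wild type and from 0.00134 to 0.46 against unrecombined cells, and that of Col4a2 and Col4a6 against wild type cells from 8e-05 to 0.353 and from 0.000528 to 0.461.

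In the FACIT class 2 of the 3 type IX chains were called higher in both comparisons. Col9a3 (chromosome 2, 180332926) shares its entry with the neighboring gene Tcfl5, so reads of either may be in the count. It was at 41.3, 80.1, 116 and 87.2 CPM in recombined, 14, 25.3, 18.1 and 17.3 CPM in unrecombined and 19, 15.5, 12.1 and 13.6 CPM in wild type libraries. Col9a2 was at 15.5, 27.8, 40.1 and 30.7 CPM in recombined, 4.2, 7.04, 2.01 and 2.54 CPM in unrecombined and 6.57, 2.13, 5.97 and 5.62 CPM in wild type libraries. All 4 recombined libraries were above all 8 others at both loci. The log2 fold changes were 2.43 for Col9a3 (SE 0.296, adjusted p = 0.000331) and 2.49 for Col9a2 (SE 0.459, adjusted p = 0.00535) against wild type cells, and 2.12 (adjusted p = 0.000608) and 2.85 (adjusted p = 0.00218) against unrecombined cells. Col9a1, the chain that completes the type IX trimer of cartilage, was at 1.77 to 16.6 CPM in recombined, 6.55 to 11.3 in unrecombined and 5.75 to 8.89 CPM in wild type libraries, and passed in neither comparison (log2 differences 0.23 and -0.13). The ratio of Col9a1 to Col9a2 counts, the direct comparison of these chains, was 0.0443 to 1.07 in recombined, 0.93 to 5.25 in unrecombined and 0.876 to 4.18 in wild type libraries. Its mean log2 value differed by -2.67 from wild type and by -3.43 from unrecombined cells. Neither difference passed (exact permutation p = 0.0857 against wild type and 0.0571 against unrecombined cells, adjusted p = 0.206 and 0.152). The ratio was chosen after its values were seen. With 4 libraries against 4, an adjusted p below 0.05 was nearly out of reach, so this test cannot decide whether the chains differ.

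Col14a1, a FACIT that binds the surface of type I fibrils, had the highest level per kilobase of all collagens in recombined cells. It was at 81.9, 301, 367 and 413 CPM in recombined, 137, 121, 133 and 136 CPM in unrecombined and 158, 77.9, 89.6 and 136 CPM in wild type libraries. Recombined library 1 lay within the range of the wild type libraries and below the unrecombined ones. The log2 fold change of 1.34 against wild type cells (SE 0.373, adjusted p = 0.0486) passed narrowly. Leaving out any 1 library other than recombined library 1 ended the call (adjusted p up to 0.141), and without recombined library 1 it was 1.64 with an adjusted p of 0.000604. Against unrecombined cells the difference of 1.14 did not pass (adjusted p = 0.104), but without recombined library 1 it was 1.45 with an adjusted p of 0.00131. Col16a1, found near basement membranes and fibrils, was at 30.5, 34.5, 72.6 and 81.3 CPM in recombined, 15.1, 9.86, 16.3 and 10.3 CPM in unrecombined and 15.4, 5.53, 11.5 and 13.8 CPM in wild type libraries. It rose by 2.24 on the log2 scale against wild type cells (SE 0.382, adjusted p = 0.00341) and by 2.08 against unrecombined cells (adjusted p = 0.00473). Col12a1, a FACIT of tendon and other dense tissue, averaged 72.5 ± 27.8 CPM in recombined, 40.7 ± 11 in unrecombined and 47.4 ± 8.96 CPM in wild type libraries and did not pass (0.61 against wild type cells, adjusted p = 0.267). Without recombined library 1, at 31.2 CPM, it passed in both comparisons (0.86 with adjusted p = 0.0266, and 1.08 with adjusted p = 0.0087). In the 25 alternatives the adjusted p against wild type and unrecombined cells ran from 0.000604 to 0.686 and from 0.00131 to 0.915 for Col14a1, and from 0.0266 to 0.895 and from 0.0087 to 0.75 for Col12a1.

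The remaining FACIT loci did not pass or were not tested. Col20a1 was at 3.39 to 23 CPM over the 12 libraries and passed in neither comparison. Col19a1 had 10, 17 and 24 counts over the recombined, unrecombined and wild type libraries and Col22a1 had 0, 0 and 11, both under the filter on low counts. For Col22a1 the 95% interval of the scaled ratio of recombined to wild type libraries reached from 0 to 0.408. Without recombined libraries 3 and 4, Col9a3 was still called higher against wild type cells (2.01, adjusted p = 0.00541) and Col9a2 (2.09, adjusted p = 0.0714) and Col16a1 (1.48, adjusted p = 0.066) were not. Among 25 alternative settings these adjusted p ran from 2.22e-13 to 0.0908 for Col9a3, from 1.14e-06 to 0.239 for Col9a2 and from 2.61e-07 to 0.187 for Col16a1.

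The transmembrane class was carried by Col17a1, the hemidesmosomal collagen of basal epithelial cells (chromosome 19, 47720830). It was at 83.5, 207, 262 and 229 CPM in recombined, 10.5, 31.9, 15.2 and 35.2 CPM in unrecombined and 44.7, 31.2, 44.2 and 36.9 CPM in wild type libraries. Recombined library 1 was the lowest of its group and still above every other library. Col17a1 rose by 2.32 on the log2 scale against wild type cells (SE 0.396, adjusted p = 0.00354) and by 3.07 against unrecombined cells (SE 0.408, adjusted p = 0.000497). Without recombined libraries 3 and 4 the values were 1.89 (adjusted p = 0.0776) and 2.66 (adjusted p = 0.0146). With 25 other settings the adjusted p ran from 1.21e-07 to 0.223 against wild type and from 2.04e-13 to 0.135 against unrecombined cells. Within the lower- and higher-numbered series Col17a1 differed by 1.87 and 2.74 from wild type cells, which did not pass, and by 2.81 and 3.28 from unrecombined cells, of which the higher-numbered series' value passed (adjusted p = 0.0396). The summed basal markers given above moved the same way, and the part of basal cell content in this result was not tested.

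Col13a1, a transmembrane collagen of focal contacts and neuromuscular junctions, was nearly absent from recombined libraries. It had 3 counts there, against 187 in unrecombined and 45 in wild type libraries. The scaled ratio was 0.0173 (95% interval 0.00353 to 0.0512) to unrecombined libraries, where it was called lower (adjusted p = 0.0109; 0.11 without recombined libraries 3 and 4), and 0.0682 (0.0136 to 0.213) to wild type libraries, where it was not (adjusted p = 0.066). Without recombined library 1 or wild type library 2 it also passed against wild type cells (adjusted p = 0.0247 and 0.0465). Over its alternative analyses that adjusted p ran from 0.0214 to 0.559. Col23a1, at 5.97 to 8.49 CPM in recombined, 5.95 to 7.97 in unrecombined and 6.36 to 14.1 CPM in wild type libraries, passed in neither comparison (log2 differences of -0.52 from wild type and 0.11 from unrecombined cells). Col25a1, counted with AK015682, was at 2.39 to 4.2, 2.82 to 6.87 and 0.193 to 1.61 CPM in the same groups. Its recombined and wild type libraries did not overlap, though the log2 difference of 1.46 did not pass (adjusted p = 0.163).

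**Figure D3:**
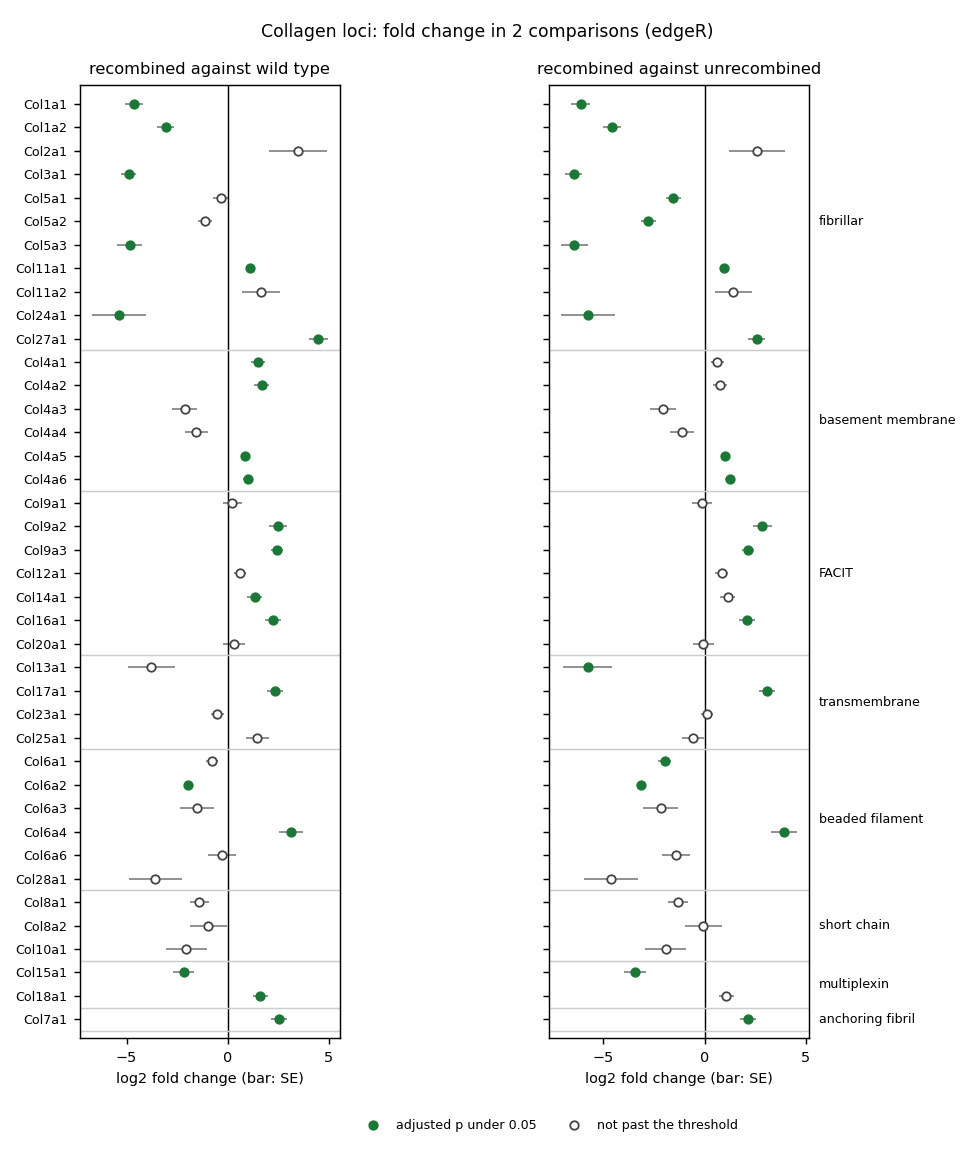
Log2 fold change (point) and standard error (bar) of the 40 tested collagen loci, grouped by class, in recombined against wild type (left) and recombined against unrecombined cells (right); filled points have an adjusted p under 0.05. In the fibrillar class Col1a1, Col1a2, Col3a1, Col5a3 and Col24a1 lie left of 0 in both panels and Col11a1 and Col27a1 right of it, and every filled point of the basement membrane and FACIT classes lies right of 0.

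Outside these classes, the chains of type VI collagen, the beaded filament that links cells to matrix, were not all called alike. Col6a1, Col6a2 and Col6a3 had negative log2 differences against both other groups. Col6a2 was at 5.31, 6.77, 6.35 and 8.77 CPM in recombined, 70.1, 56.5, 56.8 and 55.5 CPM in unrecombined and 23.1, 21.9, 23.6 and 35.8 CPM in wild type libraries, and the 3 groups did not overlap. It fell by 1.94 on the log2 scale against wild type (SE 0.222, adjusted p = 0.000243) and by 3.13 against unrecombined cells (SE 0.232, adjusted p = 5.9e-06). Col6a1, its neighbor on chromosome 10, averaged 17.1 ± 8.8 CPM in recombined, 67 ± 12 in unrecombined and 29.3 ± 5.79 CPM in wild type libraries. It was lower than in unrecombined cells by a log2 fold change of -1.97 (adjusted p = 0.00158) and did not pass against wild type cells (-0.78, adjusted p = 0.156), although it did without recombined library 3 (-1.16, adjusted p = 0.0222). Col6a3 was at 2.66, 8.82, 0.968 and 48.2 CPM in recombined, 74.2, 65.6, 75.1 and 58.9 CPM in unrecombined and 31.7, 64.3, 32.9 and 44.6 CPM in wild type libraries. Recombined library 4 alone reached the wild type range, and with it no call was made (-1.52 with adjusted p = 0.357 against wild type and -2.17 with adjusted p = 0.209 against unrecombined cells). Without it Col6a3 was lower in both (-3.37 with adjusted p = 0.00658, and -4.03 with adjusted p = 0.00227). Across 25 alternative analyses the adjusted p of Col6a3 ran from 0.00658 to 0.917 against wild type and from 0.00176 to 0.733 against unrecombined cells, and that of Col6a1 against wild type cells from 0.0109 to 0.717.

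Col6a4, a chain of type VI that can take the place of the Col6a3 chain, rose instead. It was at 4.77, 10.3, 16.1 and 9.68 CPM in recombined, 0.796, 0.263, 0.467 and 1.15 CPM in unrecombined and 1.63, 0.309, 1.31 and 1.36 CPM in wild type libraries, with no overlap. The log2 fold changes were 3.14 against wild type (SE 0.603, adjusted p = 0.00699) and 3.92 against unrecombined cells (SE 0.627, adjusted p = 0.00188). Without recombined libraries 3 and 4 they were 2.7 (adjusted p = 0.0783) and 3.48 (adjusted p = 0.0239). In the 25 alternatives the adjusted p ran from 1.64e-06 to 0.405 and from 9.57e-10 to 0.187. Col6a6 was at 1.81 to 20.6 CPM over all libraries and did not pass, and Col28a1, with 11, 293 and 138 counts over recombined, unrecombined and wild type libraries, did not pass either (adjusted p = 0.0646 and 0.127 against unrecombined and wild type cells).

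Col7a1 forms the anchoring fibrils that tie the epithelial basement membrane to the stroma (chromosome 9, 108855789; counted with Mir711). It was at 16.8, 44.3, 77.8 and 68.4 CPM in recombined, 12.7, 14.4, 9.62 and 10.2 CPM in unrecombined and 13.5, 8.27, 7.15 and 6.73 CPM in wild type libraries. Even its lowest recombined library, number 1, was above the others. Col7a1 rose by 2.54 on the log2 scale against wild type (SE 0.405, adjusted p = 0.00218) and by 2.14 against unrecombined cells (SE 0.398, adjusted p = 0.00531). Without recombined libraries 3 and 4 it rose by 1.77 (adjusted p = 0.0403) against wild type cells, and its 1.39 against unrecombined cells did not pass (adjusted p = 0.111). Among 25 alternative settings the adjusted p ran from 1.45e-08 to 0.189 and from 3.06e-06 to 0.54.

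The multiplexins, collagen-proteoglycans of basement membrane zones, parted. Col15a1 was at 3.13, 6.41, 0.861 and 11.6 CPM in recombined, 68.7, 67.6, 48.2 and 55.3 CPM in unrecombined and 22.7, 26.7, 20.6 and 29.4 CPM in wild type libraries, again without overlap. It fell by 2.17 on the log2 scale against wild type (adjusted p = 0.0213) and by 3.44 against unrecombined cells (adjusted p = 0.00154). The call against wild type cells was lost without wild type library 4 (adjusted p = 0.0622) and with only those groups in the fit (adjusted p = 0.0703). Col18a1, the source of endostatin, averaged 24.9 ± 9.33 CPM in recombined, 11.8 ± 4.27 in unrecombined and 8.22 ± 3.19 CPM in wild type libraries. It rose by 1.60 against wild type cells (adjusted p = 0.0204), a call lost without recombined library 4 or wild type library 1, 3 or 4 (adjusted p = 0.0529, 0.0583, 0.0627 and 0.0737), and its 1.07 against unrecombined cells did not pass (adjusted p = 0.121). Without recombined library 1 the difference from unrecombined cells was 1.31 with an adjusted p of 0.0307. With 25 other settings the adjusted p against wild type cells ran from 0.000257 to 0.629 for Col15a1 and from 0.000573 to 0.436 for Col18a1, and for Col18a1 against unrecombined cells from 0.0307 to 0.929.

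The short-chain network collagens did not pass. Col8a1, a collagen of vessel walls and of Descemet's membrane in the eye, was abundant but variable, at 258, 86.9, 135 and 93.9 CPM in recombined, 549, 219, 391 and 263 CPM in unrecombined and 106, 459, 405 and 549.9 CPM in wild type libraries. The groups overlapped, and the log2 differences of -1.4 from wild type and -1.31 from unrecombined cells had adjusted p of 0.108 and 0.152. Without recombined library 1 both passed (-1.85 with adjusted p = 0.0343 and -1.76 with adjusted p = 0.0481), as did the first without wild type library 1 (-1.71, adjusted p = 0.0203). Across 25 alternative analyses the adjusted p ran from 0.0168 to 0.797 and from 0.0344 to 0.855. Col10a1, the collagen of hypertrophic cartilage, was at 0 to 1.14 CPM in recombined, 0.828 to 1.93 in unrecombined and 0.872 to 3.21 CPM in wild type libraries, with a log2 difference of -2.05 from wild type cells that did not pass (adjusted p = 0.275; -3.87 with adjusted p = 0.0467 without recombined library 2, and 0.0467 to 0.769 over its alternatives). Col10a1 and Col8a2 stayed at or below 3.21 CPM in every library.

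**Figure D4:**
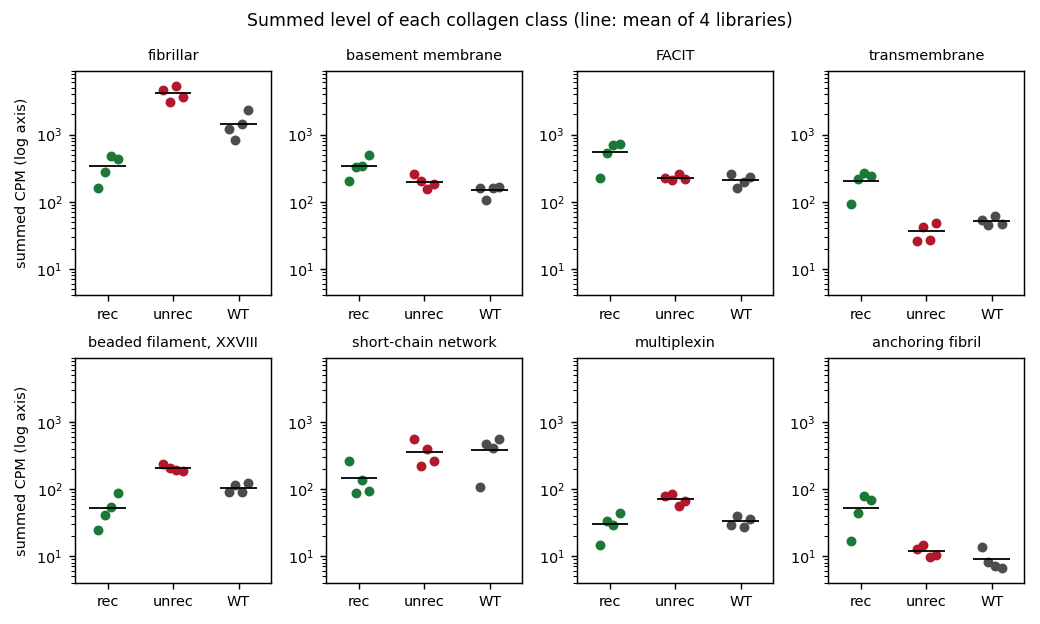
Summed CPM of each collagen class (log axis, same scale in all panels) in recombined (rec), unrecombined (unrec) and wild type (WT) libraries; points are libraries and lines means of 4. The fibrillar sum is lowest in the recombined group, at 161 to 481 CPM, and the transmembrane and anchoring fibril sums are highest there.

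Summed by class, the levels changed rank. Fibrillar loci summed to 340 ± 147 CPM in recombined, 4135 ± 996 in unrecombined and 1444 ± 642 CPM in wild type libraries (SD, n = 4 each), and the groups did not overlap. FACIT loci summed to 547 ± 229, 229 ± 20.1 and 211 ± 42.8 CPM in the same order of groups, with recombined library 1 at 225 CPM inside the range of the others. Basement membrane loci summed to 343 ± 121, 199.9 ± 41.6 and 147 ± 27.4 CPM, and transmembrane loci to 206 ± 77.8, 36 ± 11.3 and 51.1 ± 7.24 CPM. As shares of all collagen CPM within a library, fibrillar loci took 16.1 to 22.9% in recombined, 75.4 to 82.8% in unrecombined and 46.6 to 66.7% in wild type libraries. Col1a1, Col1a2 and Col3a1 alone took 4.54 to 6.21%, 70 to 78.5% and 41.3 to 62.9% in those groups. FACIT loci took 22.6 to 34.3% in recombined, 3.73 to 5.28% in unrecombined and 6.7 to 13.3% in wild type libraries, and basement membrane loci 16.2 to 22.9%, 2.47 to 5.08% and 4.72 to 8.34%. These shares are of counts, which favor long transcripts, and a fall in the abundant fibrillar loci raises every other share. All collagens together summed to 1715 ± 549 CPM in recombined, 5246 ± 1113 in unrecombined and 2383 ± 785 CPM in wild type libraries.

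Per kilobase of the longest annotated coding transcript, the order of levels differed between groups. In recombined cells Col14a1 led at 45 ± 22.7 CPM per kilobase, followed by Col17a1 at 35 ± 13.9, Col8a1 at 28.1 ± 15.5, Col9a3 at 26.6 ± 10.1 and Col4a1 at 21.7 ± 10.7, neighbors that lie within each other's SD. In unrecombined cells Col3a1 and Col1a2 led at 315 ± 77.6 and 313 ± 75.2 CPM per kilobase, also within each other's SD, with Col1a1 at 79.7 ± 26.5. In wild type cells Col1a2 and Col3a1 led at 108 ± 47.8 and 105 ± 51.4 CPM per kilobase, followed by Col8a1 at 74.4 ± 37.6. Col1a2 had rank 7 (13 ± 6.51 CPM per kilobase), Col3a1 rank 18 and Col1a1 rank 27 of 42 in recombined cells.

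The RNA ratio of chains that assemble together was compared for 8 pairs. No difference passed after adjustment, a threshold that 4 libraries a group put nearly out of reach. Col1a1 counts divided by Col1a2 counts gave 0.177, 0.0673, 0.139 and 0.063 in recombined, 0.256, 0.259, 0.334 and 0.268 in unrecombined and 0.282, 0.294, 0.266 and 0.316 in wild type libraries. All recombined libraries lay below all others. The mean log2 ratio differed by -1.52 from wild type and by -1.46 from unrecombined cells. Col6a1 to Col6a2 ratios were 1.77, 1.76, 4.59 and 2.04 in recombined, 1.2, 1.11, 1 and 1.15 in unrecombined and 1.18, 1.11, 1.18 and 1.05 in wild type libraries, and differed by 1.04 on the log2 scale from wild type cells (0.71 without recombined library 3). By contrast Col4a1 to Col4a2 ratios overlapped, at 1.73 to 2.15 in recombined, 1.56 to 2.27 in unrecombined and 1.74 to 2.46 in wild type libraries. Col6a3 to Col6a2 ratios also overlapped, at 0.153 to 5.5 in recombined, 1.06 to 1.32 in unrecombined and 1.25 to 2.94 in wild type libraries (exact permutation p = 0.686 against unrecombined and 0.457 against wild type cells). The 8 ratios were chosen after their values were seen, and 24 two-sided exact permutation tests were run over them. With 4 libraries against 4 the smallest possible p is 0.0286, which the Col1a1 to Col1a2 and Col6a1 to Col6a2 ratios reached against both other groups and the Col5a1 to Col5a2 and Col9a2 to Col9a3 ratios against unrecombined cells. The adjusted p over the 24 tests was then 0.114, so none passed. An adjusted p below 0.05 would need most of the 24 tests at the smallest possible p. The missed threshold therefore cannot decide whether these ratios differ. Col5a1 to Col5a2 was at 1.5 to 3.77 in recombined and 0.783 to 1.15 in unrecombined libraries.

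**Figure D5:**
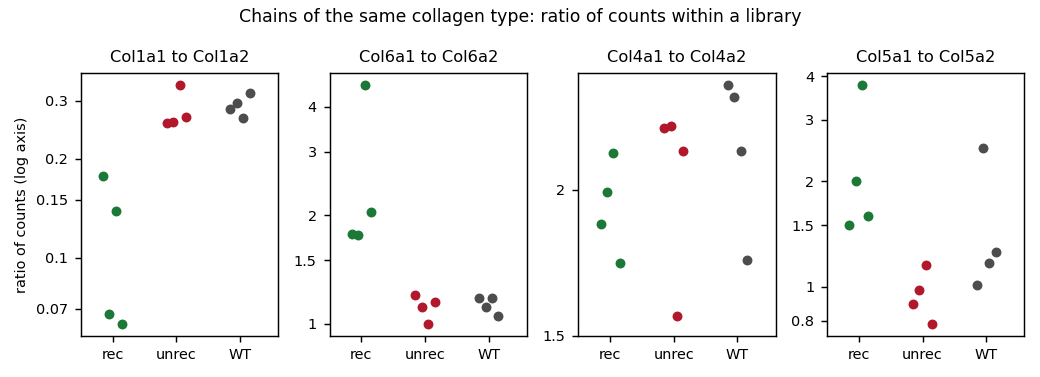
Ratio of counts of 2 chains of a collagen type within each library (log axis, own range in each panel) in recombined (rec), unrecombined (unrec) and wild type (WT) libraries. Col1a1 to Col1a2 is lower in all 4 recombined libraries than in the other 8 and Col6a1 to Col6a2 higher, while Col4a1 to Col4a2 overlaps.

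Genes that modify, fold, process and bind collagen were taken as 46 partners, of which 43 were tested. In recombined against wild type cells 4 were higher and 6 lower, where 4.17% of all loci were higher and 2.38% lower, with a median log2 fold change of 0.23 over the partners tested and -0.02 over all loci. Among the 15 modifying enzymes 2 were higher. Plod2, a lysyl hydroxylase of the telopeptides, rose by 1.41 on the log2 scale (94.9 CPM in recombined against 35.8 CPM in wild type cells on average, adjusted p = 0.0217), a call lost without recombined library 3 or 4 or wild type library 2, 3 or 4 (adjusted p = 0.0564 to 0.0784). Glt25d2, a collagen galactosyltransferase, rose by 1.98 (23.6 CPM in recombined against 5.99 CPM in wild type cells, adjusted p = 0.0157), a call lost without recombined libraries 3 and 4 (1.46, adjusted p = 0.186). The prolyl 3-hydroxylase genes Lepre1 and Leprel1 had log2 differences of 1.33 and 1.1 that did not pass (adjusted p = 0.0866 and 0.0534), and Leprel1 rose by 1.32 against unrecombined cells (adjusted p = 0.0266). Of 8 folding and export genes, 1 passed. Serpinh1, the collagen chaperone HSP47, rose by 0.75 (93.5 against 55.6 CPM, adjusted p = 0.0181), and this was lost without wild type library 1 or 3 (adjusted p = 0.0544 and 0.0604). Fkbp10, Sec24d and Creb3l1 had log2 differences of 0.23, 0.30 and 0.51, with adjusted p of 0.438 to 0.598. Across all alternative analyses the adjusted p ran from 0.000838 to 0.597 for Plod2, from 0.000163 to 0.459 for Glt25d2 and from 0.00124 to 0.759 for Serpinh1.

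Of the 12 tested genes that process and cross-link fibrils, 4 fell and 1 rose against wild type cells, where 2.38% of all loci fell and 4.17% rose. Lox, the lysyl oxidase that cross-links fibrils, was at 1.7, 3.19, 0.538 and 0.535 CPM in recombined, 144, 39.1, 72.2 and 60.7 CPM in unrecombined and 17.7, 6.15, 32 and 28.5 CPM in wild type libraries. It fell by 3.79 on the log2 scale against wild type (adjusted p = 0.00414) and by 5.70 against unrecombined cells (adjusted p = 0.000364). The call against wild type cells was lost without recombined libraries 3 and 4 (-3.12, adjusted p = 0.0844) and in limma-voom (adjusted p = 0.0645, and 0.121 with weights), in a range of 1.85e-09 to 0.277 over its alternatives. Loxl2 was at 1.94, 2.89, 0.968 and 1.32 CPM in recombined, 36.1, 32, 36.2 and 23.5 CPM in unrecombined and 13, 11.8, 17.2 and 16.8 CPM in wild type libraries, a fall of 3.03 against wild type cells (adjusted p = 0.000201). Loxl1 had 3 counts in recombined libraries, against 584 in unrecombined and 265 in wild type libraries, a scaled ratio of 0.00553 (0.00114 to 0.0162) and 0.0116 (0.00237 to 0.0342), and passed in both (adjusted p = 0.000391 and 0.00131). Its call against wild type cells was lost in limma-voom with library weights (adjusted p = 0.0658) and within the lower-numbered series (-5.05, adjusted p = 0.12). Pcolce, which enhances removal of the procollagen C-propeptide, was lower at a log2 fold change of -2.46 (adjusted p = 0.0465), lost without any 1 library other than recombined library 2 (adjusted p up to 0.115). Loxl3 was called higher at 1.00 (adjusted p = 0.0409), but its entry is joined with Aup1 and Htra2, and the call was lost without any 1 of 10 libraries (adjusted p up to 0.117). Across all alternative analyses the adjusted p reached 0.579 for Pcolce and 0.566 for Loxl3, and was as low as 0.00242 and 0.00635. Against unrecombined cells 5 of the 12 tested genes of this list were lower and none higher, where 2.14% of all loci were lower.

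Of 8 receptors tested, 2 were lower and 0 higher in each comparison with recombined cells. Over all loci 2.38% were lower against wild type cells and 2.14% against unrecombined cells. Ddr2, the discoidin receptor of mesenchymal cells for fibrillar collagen, averaged 9.86 CPM in recombined, 111 in unrecombined and 50.7 CPM in wild type cells and fell by 2.36 on the log2 scale against wild type cells (adjusted p = 0.000515). Within the lower-numbered series the Ddr2 call was lost (-2.13, adjusted p = 0.088). Mrc2, an endocytic collagen receptor of fibroblasts, fell by 1.88 (1.65 CPM in recombined against 6.12 CPM in wild type cells, adjusted p = 0.0131). That call was lost without recombined libraries 3 and 4 (adjusted p = 0.0571), in limma-voom (0.0689) and with only the groups compared (0.067), in a range of 0.000133 to 0.501 over its alternatives. Ddr1, the epithelial discoidin receptor, averaged 52.2, 35.7 and 37.4 CPM in recombined, unrecombined and wild type cells, and its log2 difference of 0.48 from wild type cells did not pass (adjusted p = 0.177). Itgb1, the beta chain of the collagen-binding integrins, differed by 0.35 (adjusted p = 0.212).

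Between unrecombined and wild type cells no collagen and no locus passed edgeR's test, in which the smallest adjusted p over all loci was 0.128. At an unadjusted p under 0.05 there were 13 collagens of 40, where 541 loci (3.85%) reached it. DESeq2 called 9 collagens, limma-voom 3 (8 once libraries were weighted), all higher in unrecombined cells. Among all loci the calls numbered 78, 25 and 74 in that order. The libraries of unrecombined cells lay wholly above those of wild type cells at 13 collagen loci, where 2.86% of all loci did so, and wholly below them at none. All 11 fibrillar loci had positive log2 differences, with a median of 1.48 over the class and 0 over all loci. For Col6a2 the difference was 1.20 (adjusted p = 0.128), for Col3a1 1.58 (adjusted p = 0.215), for Col5a2 1.64 (adjusted p = 0.264) and for Col27a1 1.91 (adjusted p = 0.298). All 16 fibroblast markers also had positive differences, with a median of 1.31, and none passed.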

How the data were processed

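RNA of sorted primary mammary epithelial cells was sequenced in 12 libraries, 4 per group. The deposited values are raw counts per entry of a count table; per the submitters' processing notes STAR and HTSeq 0.3.1 were used with the mm9 build, and options, annotation and strand are not given in the sources used here. The table has 36635 entries, of which 16521 name several loci and were left out, 3266 of the 20114 others join several names, and antisense or overlapping genes may share counts. Of the 42 collagen loci 9 carry a joined name. Collagens and gene lists were chosen with earlier results of these data known.

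Counts were fitted over all 12 libraries in R 4.3.3 with edgeR 4.0.16 (TMM scaling, filterByExpr, robust quasi-likelihood F test), and p-values were adjusted by Benjamini-Hochberg over the 14039 loci that passed the filter. CPM are TMM-scaled, and the standard error is the log2 fold change divided by the square root of F. Scaled count ratios carry exact 95% intervals, which cover counting error only. Values are given for each collagen called in any comparison and for the 2 with the highest mean CPM in each class, and other collagens by range and count. Of each partner list, genes called against wild type cells are named, filled up to 4 by smallest p. Alternatives were DESeq2 1.42.0 (test and size factors), limma 3.58.1 voom with and without library weights, upper quartile scaling, other filters (none; at least 1 CPM in 4 libraries), a fit of only the groups compared, a replicate block, the series of library numbers (as a covariate, and each series alone), leaving out recombined libraries 3 and 4, and leaving out each library; chain ratio alternatives were chosen after seeing the data. The fits were tested on simulated data. Same-numbered recombined and unrecombined libraries deviated together (correlations 0.278, 0.482, 0.29 and 0.36, against -0.256 to -0.0326 for other pairs). Deviations were from each group's mean, which in itself lowers the other pairs when same-numbered ones correlate. Same-numbered libraries of these groups also share a number series, and those numbered 2 share salivary transcripts, whose part was not tested. The numbers were taken as pairing them from the data, as the labels do not state it. The main fit did not use this pairing. The replicate block did, and it grouped the wild type libraries by number too.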

Additional observations from a re-analysis of the deposited data

Results flagged for a closer look

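In 12 of the 90 groups of 4 libraries examined, 1 library stood far from the other 3. About 1 in 20 would for independent, normally distributed values, which CPM of related loci are not. Where the other 3 are at 0, a library with counts is always flagged. Among recombined libraries, Col6a3 was 48.2 CPM in library 4 and 0.968 to 8.82 in the others, Col3a1 was 30.8 CPM in library 3 and 15.1 to 17.2 in the others, and Col12a1 was 31.2 CPM in library 1 and 81.3 to 90.2 in the others. At low levels, Col10a1 was 1.14 CPM in recombined library 2 and 0 to 0.179 in the others, Col24a1 was 0.108 CPM in recombined library 3 and Col13a1 0.0895 CPM in recombined library 1, with 0 in the others. In unrecombined library 1 Col6a2 was 70.1 CPM, against 55.5 to 56.8 in the other unrecombined libraries. In wild type library 4 Col6a2 was 35.8 CPM, against 21.9 to 23.6 in the other wild type libraries. Wild type library 2 stood apart at 4 loci. Col27a1 was 2.28 CPM there (5.97 to 6.59 in the other wild type libraries), Col18a1 was 13 CPM (6.34 to 6.93), Col24a1 was 2.59 CPM (0.392 to 0.715) and Col10a1 was 3.21 CPM (0.872 to 1). That library also held salivary transcripts at 42003 CPM, whose part in these values was not tested.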

How the results depend on the processing

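Against wild type cells the 21 collagens called (14 higher, 7 lower) became 11 (3 higher) without recombined libraries 3 and 4, 7 (1 higher) in the lower-numbered series and 4 (1 higher, 3 lower) in the higher-numbered series, and 12 were lower in DESeq2. All 920 loci called became 1617 in DESeq2, 594 with only the groups compared, 248 without recombined libraries 3 and 4, 75 in the lower-numbered and 17 in the higher-numbered series. The 10 partners became 5 with voom library weights, 6 with only the groups compared, and 3, 1 and 1 under those 3 library subsets. Against unrecombined cells the 21 collagens (10 higher, 11 lower) became 7 (0 higher, 7 lower) in the lower-numbered and 10 (5 higher, 5 lower) in the higher-numbered series, and 4 were higher without recombined libraries 3 and 4. All 733 loci became 1349 in DESeq2, 283 without recombined libraries 3 and 4, 106 in the lower-numbered and 115 in the higher-numbered series, and the 8 partners became 5 with only the groups compared, 3 and 3 in the 2 series. Between unrecombined and wild type cells the 0 collagens called became 9 (DESeq2), 3 (voom), 8 (voom with weights) and 1 (only the groups compared), the 0 loci became 78, 25, 74 and 8, and 1 with the replicate block, and the 0 partners became 3 (DESeq2) and 3 (weights). These subsets hold fewer libraries; other causes were not tested.

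Leaving out 1 library gave 15 to 24 collagens (10 to 15 higher, 5 to 9 lower), 502 to 1217 loci and 6 to 13 partners against wild type cells. Against unrecombined cells it gave 18 to 27 collagens (8 to 14 higher, 9 to 13 lower), 449 to 1044 loci and 5 to 9 partners. Between unrecombined and wild type cells it gave 0 to 0 collagens, loci and partners. With the replicate block 20 collagens passed against wild type cells, Col14a1 being lost (adjusted p = 0.0956), and 21 against unrecombined cells; the partner Loxl3 was lost (0.0519). Same-numbered libraries correlated at -0.034 to 0.281 (recombined and wild type) and -0.00369 to 0.376 (unrecombined and wild type), so those numbers were not taken as pairs. Values that turned sign were Creb3l1 against wild type cells (0.51; -0.13 without recombined library 3, -0.03 without recombined libraries 3 and 4, -0.02 in the lower-numbered series), Col4a1 (0.63; -0.20 in the lower-numbered series) and Col23a1 (0.11; -0.21 in the higher-numbered series) against unrecombined cells, none of them called, and the log2 ratio of the multiplexin sums against wild type cells (-0.12; 0.11 without recombined library 1), which has no test. The beaded filament sum moved from a log2 ratio of -1 to -1.67 without recombined libraries 3 and 4. The log2 chain ratio of Col1a1 to Col1a2 against wild type cells ran from -1.79 to -1.29 without 1 library and was -1.40 without recombined libraries 3 and 4, and that of Col6a1 to Col6a2 ran from 0.71 to 1.17 and was 0.64.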

Other observations

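By Pearson correlation of log2 CPM over the 12 libraries, which share the group differences, the loci most like Col27a1 were Ppp1r14c (0.984), Aff3 (0.974), Fzd1 (0.968), Gja1 (0.967) and Wif1 (0.966). Those most like Col3a1 were Col1a1 (0.997), the joined entry of Lrrc17 and Fbxl13 (0.989), Inmt (0.988), Mfap5 (0.986) and Col5a3 (0.985). These are descriptions with no test.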
